A study of Rattus norvegicus with 18 samples.

Results

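The gene expression of the rat hippocampus was compared between 7 and 3 days after pilocarpine-induced status epilepticus (SE), both within the latent phase that separates the insult from the first spontaneous seizure. The comparison used 10 of the 18 arrays of the series, 5 from rats killed 7 days after SE (D7) and 5 from rats killed 3 days after SE (D3), chosen by their labels alone. All were male adult Wistar rats given scopolamine methylnitrate, which limits the peripheral action of the drug, then pilocarpine, a muscarinic agonist that provokes SE, and finally diazepam to stop the seizures. The 3 saline-treated rats (Control), 1 for each time point of the study, served as the uninjured level, and the 5 rats taken after the first spontaneous seizure (Chronic) entered the estimate of the spread. RNA came from the whole hippocampus, 1 array per rat, so that fewer cells of a type and less RNA per cell cannot be told apart. Arrays are called by the numbers of their labels, and values by array follow the order 31, 32, 33, 34 and 35 for D7, then 11, 12, 13, 14 and 15 for D3, then 26, 36 and 47 for Control.

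After SE, neurons of the hilus and of the pyramidal layers die, microglia and astrocytes multiply and change shape, and the vessel wall and the extracellular matrix are remodelled. Astrocytes that react to injury build up intermediate filaments such as vimentin and nestin and release acute-phase proteins, while microglia take up debris. Progenitors of the dentate gyrus also divide more in the days that follow SE, so genes of the cell cycle can come from several kinds of cell in this tissue.

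Values are the authors' normalized intensities, in which the median spot of an array lies close to 1, and differences are given as D7 minus D3 on the log2 scale with the standard error of the fit. A gene was called when the adjusted p of limma (Benjamini-Hochberg, over 33800 probes) was under 0.05 and the change was at least 2-fold, and 1 probe stood for each of 12331 named genes. By this rule more genes were lower than higher. At D7 56 genes were lower than at D3 (0.454% of those tested) and 9 were higher (0.073%). At the level of probes, 77 were lower (0.228%) and 32 were higher (0.0947%). With the adjusted p alone and no limit on the fold, 150 genes were lower (1.22%) and 27 were higher (0.219%), out of 212 probes (0.627%) and 87 probes (0.257%). The D7 arrays lay below the D3 arrays without overlap for 43 of the 56 lower genes and above them for 8 of the 9 higher genes. Over all genes the numbers were 456 (3.7%) and 147 (1.19%). The calls came from these same arrays, so little overlap among called genes follows largely from the call.

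For 46 of the 56 lower genes the D7 mean stood between the D3 and the Control means, and for the other 10 it had reached or passed the Control mean. Of the 56, 24 were still higher than Control at D7 by the same rule (3.8% of all genes were) and 48 had been higher at D3 (5.09% of all genes). Of the 9 higher genes, 3 had a D7 mean between those of D3 and Control, 5 had reached or passed Control, and 1 (Enpp6) was at the Control level at D3 and above it at D7. None of the 9 was lower than Control at D7 by that rule (0.487% of all genes were), and 3 had been lower at D3 (0.973%). Both comparisons with Control share the same 3 arrays. They also reuse the D3 and D7 arrays that chose these genes, so the counts partly follow from the choice and only describe the genes. Among the probes higher at D7, 19 of 32 had no single gene name. Of the 32, 7 were not above background on any D7 or D3 array. A further 11 were above background on at least 1 D7 array but on no D3 array. The lowest positive values differed in the same direction, since the level of percentile 1 lay between 0.0413 and 0.0577 on the D7 arrays and between 0.0314 and 0.0376 on the D3 arrays, and its part in those dim probes was not tested.

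**Figure D1:**
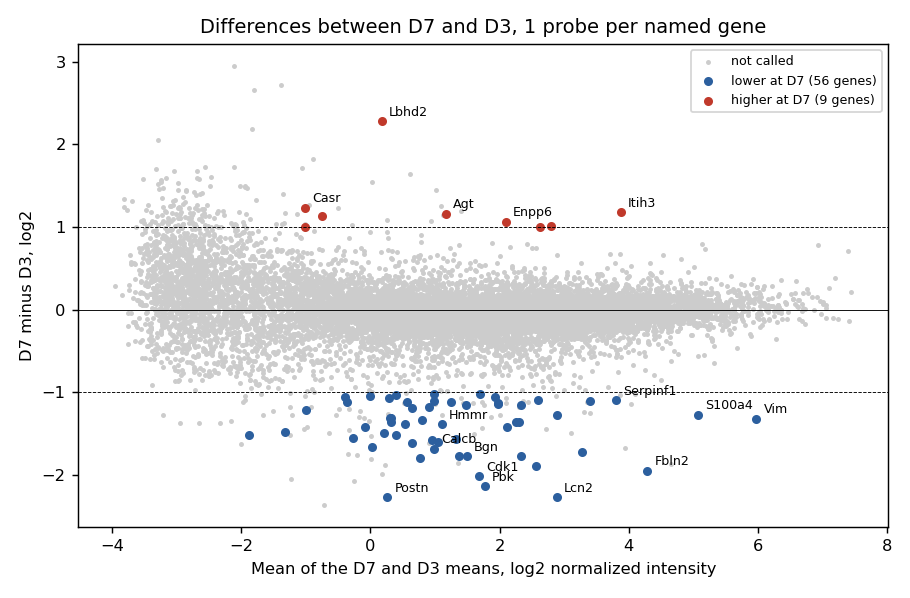
Difference D7 minus D3 (log2, vertical axis) against the mean level of both groups (log2 normalized intensity, horizontal axis) for 12331 named genes, with dashed lines at 2-fold. The 56 lower genes (blue) run down to -2.27 for Lcn2 and Postn, and 9 genes (red) are higher at D7.

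The arrays differed in ways that bear on the comparison. The share of spots above background was 66.9 to 71.0% at D7 and 66.0 to 76.0% at D3. Pairs of D7 arrays correlated less well (r = 0.949 to 0.969, 10 pairs) than pairs of D3 arrays (0.960 to 0.970, 10 pairs), and D7 replicate 33 had the lowest median r with its own group, 0.951. Choroid plexus, which a dissection may take along, varied between animals of both groups, with a summed level of its 22 markers of 30.5 to 222 at D7, high in replicates 33 and 35, 30.3 to 161 at D3, high in replicates 11 and 14, and 40.1 to 337 in Control. Leaving out D7 replicate 33 raised the number of lower probes to 132. Leaving out D3 replicate 12, D7 replicate 34, D7 replicate 32 or D3 replicate 15 brought it to 35, 39, 46 and 47. The number of higher probes came to 13 without D7 replicate 32 or 34, 16 without D3 replicate 12, and 17 without D3 replicate 14 or D7 replicate 35. The split also moved with the scaling: lower probes made up 70.6% of the called ones here, 84.8% (78 lower and 14 higher) after quantile normalization and 59.3% (54 lower and 37 higher) after scaling at percentile 75. With the methods' t-test at its unadjusted threshold and 2-fold the majority turned round, with 182 lower and 459 higher probes (28.4% lower). With every array left out in turn, 22 of the 56 lower genes and 3 of the 9 higher genes kept their call.

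The list with the most lower genes was that of mitosis. Of 51 measured genes of mitosis, 22 were lower at D7 and none was higher, and 25 were lower with the adjusted p alone. Their median difference was -1.03, beside -0.02 over all genes. Against Control the median was 0.58 at D7 and 1.44 at D3. Without D7 replicate 34, D3 replicate 12 or D7 replicate 32 the number of called genes was 12, 13 and 14, and without D7 replicate 33 it was 28.

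The promoters of these genes are shown because a pair of short elements is known from promoters of genes that peak late in the cell cycle: CCAAT, bound by NF-Y, and TTTGAA, the core of the cell cycle genes homology region (CHR), at which the MuvB complexes act. RefSeq promoters (assembly GRCr8, 300 bases around the start site, either strand searched) were matched for 18 of the 22 called genes. TTTGAA stood in 15 of these 18 (83.3%) and CCAAT in all 18, and 15 held both. Among the other mitosis genes, with 27 of 29 promoters matched, TTTGAA stood in 18 (66.7%), CCAAT in 19 (70.4%) and both in 15 (55.6%). Of all 33469 promoters, 18.3% held TTTGAA, 37.5% held CCAAT and 7.41% held both. The 150 bases before the start site follow for 4 genes with both elements, Cdk1 (chr20:19265143-19265292, plus strand), Cdc20 (chr5:137255800-137255949, minus strand), Hmmr (chr10:25665216-25665365, minus strand) and Pttg1 (chr10:28406327-28406476, minus strand), and for Ccnb1 (chr2:33655226-33655375, minus strand), in which TTTGAA was not found. Capitals mark CCAAT and TTTGAA or their complements ATTGG and TTCAAA, read 5′ to 3′ on the strand of the gene.
Cdk1: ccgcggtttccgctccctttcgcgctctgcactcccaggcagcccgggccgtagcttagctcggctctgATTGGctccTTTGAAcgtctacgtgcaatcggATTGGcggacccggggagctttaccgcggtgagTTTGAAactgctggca
Cdc20: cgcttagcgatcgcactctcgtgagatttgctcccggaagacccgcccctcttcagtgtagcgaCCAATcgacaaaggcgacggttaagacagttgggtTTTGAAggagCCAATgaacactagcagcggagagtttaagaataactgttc
Hmmr: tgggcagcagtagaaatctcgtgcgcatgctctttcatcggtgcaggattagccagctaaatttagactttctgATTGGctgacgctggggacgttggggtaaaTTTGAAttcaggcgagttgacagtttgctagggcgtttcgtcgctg
Pttg1: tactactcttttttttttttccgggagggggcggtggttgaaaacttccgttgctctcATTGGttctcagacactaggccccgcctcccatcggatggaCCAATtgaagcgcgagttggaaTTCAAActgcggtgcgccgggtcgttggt
Ccnb1: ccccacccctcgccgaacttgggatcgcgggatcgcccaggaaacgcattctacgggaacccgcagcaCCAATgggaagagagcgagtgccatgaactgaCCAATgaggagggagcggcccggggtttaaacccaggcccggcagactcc

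Among the kinases and cyclins that drive mitosis, Cdk1, whose kinase starts mitosis, had normalized intensities of 1.52, 0.731, 4.34, 0.928 and 2.32 at D7, against 8.07, 8.53, 4.79, 5.43 and 6.30 at D3 and 0.387, 0.435 and 0.515 in Control. All 5 D7 arrays lay below all 5 D3 arrays and above Control. The fall was 2.02 on the log2 scale (standard error 0.33, adjusted p = 0.0075), and a second probe of Cdk1 fell by 1.87 (standard error 0.32, adjusted p = 0.0094). Pbk, a kinase active in mitotic cells, had 1.65, 0.796, 3.99, 1.03 and 2.14 at D7, against 7.59, 7.74, 6.45, 6.10 and 8.16 at D3 and 0.236, 0.438 and 0.412 in Control. It fell by 2.13 (standard error 0.31, adjusted p = 0.0028), without overlap. Ccnb1, the cyclin B1 partner of Cdk1, had 0.981, 0.881, 1.22, 0.866 and 1.12 at D7, against 2.5, 2.33, 1.73, 1.99 and 2.47 at D3 and 1.12, 1.11 and 1.10 in Control. Its D7 values lay on both sides of the Control values, with a difference from D3 of -1.12 (standard error 0.13, adjusted p = 8.1e-04). Cks2, a small subunit that binds Cdk1, fell by 1.66 (standard error 0.31) and Ccna2, cyclin A2, by 1.61 (standard error 0.32), both without overlap. Ccna2 lost its call without D3 replicate 12, D7 replicate 32 or D7 replicate 34 (adjusted p up to 0.061).

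The genes that release sister chromatids fell as well. Pttg1 encodes securin, which holds separase in check, and had 0.846, 0.693, 1.81, 0.573 and 1.07 at D7, against 3.65, 3.92, 2.48, 2.64 and 3.43 at D3 and 0.434, 0.356 and 0.465 in Control. It fell by 1.79 (standard error 0.24, adjusted p = 0.0016), with no overlap. Cdc20, the activator of the anaphase-promoting complex, had 0.721, 0.577, 1.58, 0.460 and 0.924 at D7, against 2.69, 2.63, 1.62, 1.95 and 2.41 at D3. Its lowest D3 array (1.62) and highest D7 array (1.58) almost touched, and the fall was 1.52 (standard error 0.26, adjusted p = 0.0092). Ube2c, the ubiquitin-conjugating enzyme of the same complex, fell by 1.57 (standard error 0.30, adjusted p = 0.014) with D7 replicate 33 (3.46) inside the D3 range of 3.31 to 5.57. Its call was lost without D3 replicate 12 or D7 replicate 34 (adjusted p up to 0.052).

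Genes of chromosomes, kinetochores and the spindle made up the rest. Hmmr, which helps to assemble the spindle, had 1.21, 1.03, 2.20, 1.16 and 1.30 at D7, against 3.81, 4.35, 2.60, 2.99 and 3.90 at D3 and 1.42, 1.35 and 1.25 in Control. It was thus at the Control level at D7 (D7 minus Control -0.01, D3 minus Control 1.37) and fell by 1.38 between the time points (standard error 0.17, adjusted p = 8.1e-04), while a dimmer second probe fell by 1.0 without passing the test (adjusted p = 0.27). Cenpf of the kinetochore fell by 1.58 (its dimmer second probe differed by -0.77, adjusted p = 0.49), Kif23 and Prc1 of the central spindle by 1.38 and 1.27, and Cdca8 of the chromosomal passenger complex by 1.33. Top2a, which untangles chromosomes, and Mki67, the Ki-67 antigen, fell by 1.76 and 1.60 but overlapped between groups, through D7 replicate 33. Kif22, Kif20a, Nusap1, Aspm, Racgap1, Spc25 and Dlgap5 fell by 1.35, 1.49, 1.42, 1.18, 1.12, 1.03 and 1.02. Kif20a, Kif22 and Spc25 each lacked 1 D7 value and Kif23 lacked 1 D3 value, left out for a quality flag. The call failed in 8 of the 10 fits that left out an array for Kif20a and Aspm, in 7 for Top2a, Mki67 and Nusap1, in 4 for Spc25 and Dlgap5, in 3 for Kif22 and in 1 for Racgap1, with adjusted p up to 0.13 for Kif20a.

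**Figure D2:**
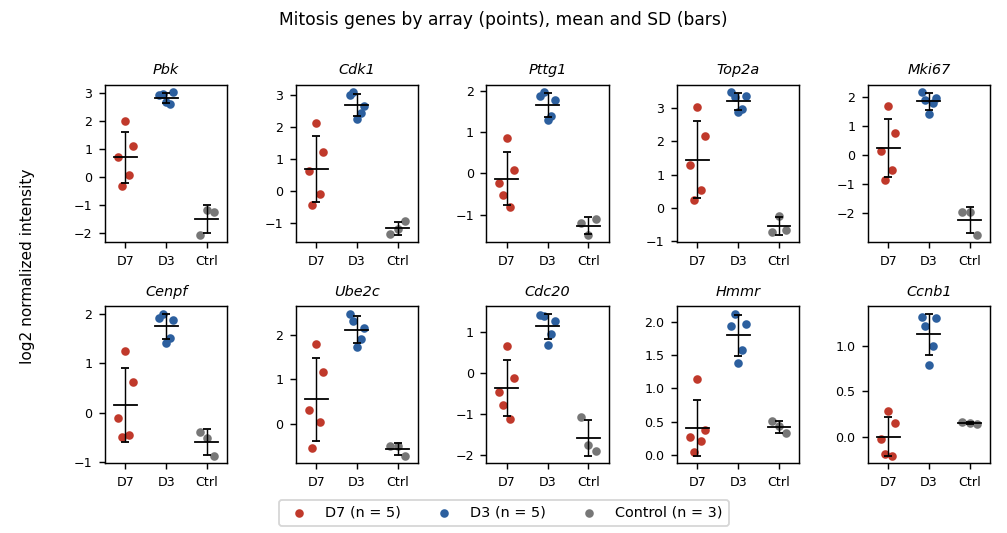
Levels of 10 mitosis genes (log2 normalized intensity, vertical axis) on each array of D7, D3 and Control, with the group mean and SD as bars (n = 5, 5 and 3). The D7 points lie between D3 and Control for most of the genes and spread more widely than the D3 points, with replicate 33 at the top.

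The spread at D7 followed the same arrays across genes. D7 replicate 33 was the highest of the D7 arrays for 21 of the 22 called mitosis genes, and replicates 32 and 34 were the lowest for 11 and 10 of them. At D3, replicate 13 was the lowest for 20. Over the 51 genes, the median level relative to the mean of both groups was -0.57, -0.84, 0.25, -1.02 and -0.31 at D7, against 0.76, 0.66, 0.26, 0.36 and 0.60 at D3 and -1.17, -1.04 and -0.97 in Control. The D7 arrays therefore covered nearly the whole way between D3 and Control. For 15 of the 22 genes, which were called from these same arrays, the groups did not overlap (3.7% of all genes lay below without overlap). Without D7 replicate 33 this held for all 22. Other lists stood apart on replicate 33 too. The summed level of 39 microglia and macrophage markers was 946 there, against 356 to 648 on the other D7 arrays and 503 to 613 at D3, while that of 29 excitatory neuron markers was 468, against 591 to 777 and 495 to 691. Trem2 and Fcer1g, microglial markers, were not above background on any of the 10 arrays. The part of these shifts in the mitosis genes was not tested. Against Control, 13 of the 22 genes were still called higher at D7 (3.8% of all genes were) and 20 at D3 (5.09%). The choice of these genes by D7 minus D3 favours a high D3 level.

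Of 35 measured genes of DNA synthesis, 1 was lower at D7, 5 were lower with the adjusted p alone, none was higher, and the median difference was -0.48. Tk1, the thymidine kinase of S phase, had 0.319, 0.219, 0.485, 0.176 and 0.128 at D7, against 0.722, 0.813, 0.578, 0.611 and 0.634 at D3, a fall of 1.48 (standard error 0.34, adjusted p = 0.038). It was above background on 1 of 5 D7 arrays and on all D3 arrays, and its call was lost in 8 of the 10 fits without an array (adjusted p up to 0.11). Its other, dimmer probe differed by -0.36 (adjusted p = 0.80). Rrm1, the large subunit of ribonucleotide reductase, fell by 0.59 (adjusted p = 0.0092), Pold1, the catalytic subunit of DNA polymerase delta, by 0.57 (adjusted p = 0.037), Pcna, the sliding clamp, by 0.49 (adjusted p = 0.047), and Gmnn, the inhibitor of replication licensing, by 0.78 (adjusted p = 0.047), each without overlap. Rrm2, the small subunit of ribonucleotide reductase, differed by -1.75 (standard error 0.42) but missed the test (adjusted p = 0.057, 4 D3 values). Outside the lists, Cenpi and Cenpw of the centromere fell by 1.30 and 1.36, Pclaf, which binds Pcna, by 1.42 and Chtf18, of a clamp loader, by 1.11. The second probes of Cenpi and Cenpw differed by -1.52 and -2.02 but missed the test (adjusted p = 0.081 and 0.054). That of Cenpi was not above background on any D7 array. Pclaf, Chtf18 and Cenpw lost the call in 8, 6 and 3 of the fits without an array (adjusted p up to 0.12).

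Cdkn2c, which encodes the Cdk4 and Cdk6 inhibitor p18INK4c, had 4.67, 3.98, 7.12, 4.56 and 5.78 at D7, against 8.72, 10, 7.34, 8.13 and 11 at D3 and 2.63, 3.20 and 3.04 in Control. It was 0.81 lower (standard error 0.14, adjusted p = 0.01), below the 2-fold limit but without overlap. It was 1 of 6 genes that the study followed by PCR, of which Cdk1 and Nes were also lower. The other 3 did not pass the test. Tgfb1, a cytokine of glia and repair, differed by 0.32 (95% interval -0.27 to 0.90), Igf1, a growth factor made by microglia after injury, by 0.00 (-0.58 to 0.59), and Gfap, the astrocytic filament, by -0.24 (-0.55 to 0.07). All 3 were above Control at both time points, by 2.33, 2.32 and 1.91 at D7 and by 2.01, 2.32 and 2.15 at D3.

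Of 31 measured genes of reactive astrocytes, 3 were lower at D7, 4 were lower with the adjusted p alone and none was higher, and the median was -0.30. The D7 arrays lay below the D3 arrays without overlap for 10 of the 31, against 456 (3.7%) of all genes. Against Control the median was 1.30 at D7 and 1.45 at D3. Lcn2, the siderophore-binding lipocalin of acute inflammation, had 7.78, 1.37, 6.13, 2.24 and 2.99 at D7, against 19.2, 21.1, 18.3, 13.3 and 11.5 at D3 and 1.05, 0.717 and 0.854 in Control. The groups did not overlap, although D7 replicates 31 and 33 stayed well above the other 3, and the fall of 2.27 (standard error 0.36, adjusted p = 0.0056) was, with that of Postn below, the largest among named genes. Vim, vimentin, had 55.6, 32.6, 66.4, 27.1 and 31 at D7, against 102, 113, 88.2, 96.7 and 98.1 at D3 and 11.1, 10.1 and 25.2 in Control. It fell by 1.32 (standard error 0.24, adjusted p = 0.011) and was still above Control at D7 by 1.5. Nes, nestin, an intermediate filament of progenitors and of reactive astrocytes, had 2.07, 2.02, 2.61, 1.32 and 1.60 at D7, against 4.51, 5.66, 3.08, 4.12 and 3.77 at D3 and 1.34, 1.60 and 1.64 in Control. Its D7 values reached down into the Control range, and both of its probes fell, by 1.15 (standard error 0.17, adjusted p = 0.0028) and 1.22 (standard error 0.14, adjusted p = 8.1e-04).

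Gfap behaved differently from the other filament genes, with 40.0, 35.9, 49.7, 35.3 and 41 at D7, against 56.0, 45.1, 46.9, 46.8 and 42.7 at D3 and 9.95, 12.2 and 10 in Control. The groups overlapped, and both lay far above Control. A2m, a protease inhibitor, was 0.85 lower at D7 (adjusted p = 0.0048), with 13.7 to 19.1 at D7 and 27.5 to 34.8 at D3. Hspb1, a small heat shock protein, and Timp1, an inhibitor of metalloproteinases, had D7 arrays below all D3 arrays and differences of -1.86 and -1.68 but missed the threshold (adjusted p = 0.056 and 0.12), as their D7 arrays ranged over 6.88 to 22 and 5.15 to 18.1.

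Of 54 measured genes of the extracellular matrix, 4 were lower at D7 and none was higher, 7 were lower with the adjusted p alone, 45 had a lower mean at D7, and the median was -0.40. For 36 of the 54 the D7 mean lay between a higher D3 mean and the Control mean, as it did for 2437 of all 12331 genes. Fbln2, fibulin 2 of basement membranes and elastic fibres, had 10.5, 9.85, 13, 7.87 and 9.25 at D7, against 33, 46.8, 35.3, 36.4 and 42.1 at D3 and 4.69, 4.73 and 5.63 in Control. Every D3 array was more than 2-fold above every D7 array, the fall was 1.95 (standard error 0.36, adjusted p = 0.012), and it was called in the methods' t-test after adjustment as well. Bgn, the proteoglycan biglycan, had 1.38, 1.15, 1.97, 1.57 and 1.68 at D7, against 2.38, 6.91, 5.99, 4.79 and 8.0 at D3 and 1.58, 1.89 and 1.46 in Control. Its D7 values matched Control (difference -0.10) and the fall was 1.77 (standard error 0.25, adjusted p = 0.0029). Postn, the matricellular protein periostin, had 0.813, 0.464, 1.05, 0.402 and 0.311 at D7, against 2.18, 5.43, 1.21, 2.57 and 3.46 at D3 and 0.362, 0.385 and 0.148 in Control. It fell by 2.27 (standard error 0.41, adjusted p = 0.01), and the D3 arrays differed among themselves several-fold.

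Fbln5, fibulin 5, fell by 1.11 (standard error 0.22, adjusted p = 0.016), a call lost without D3 replicate 12 or D7 replicate 34 (adjusted p up to 0.055). Vcan, the proteoglycan versican, was 0.69 lower, Efemp2, fibulin 4, 0.66 lower and Col5a2, a chain of collagen V, 0.60 lower, with adjusted p of 0.028, 0.027 and 0.047. Spp1, osteopontin, and Tnc, tenascin C, differed by -1.5 and -1.11 without passing the test (adjusted p = 0.23 and 0.12). Spp1 was not above background in any Control array. Col1a1, a chain of the fibrillar collagen I, differed by 0.06 (95% interval -0.18 to 0.30). In matrix turnover, 1 of 32 genes was lower: Serpinf1, pigment epithelium-derived factor, had 11.2, 7.38, 15.2, 6.79 and 9.17 at D7, against 18.9, 21.1, 19.5, 20.9 and 21.4 at D3 and 3.33, 2.61 and 4.44 in Control. The 5 D3 values were close together and the D7 values were not, and the fall was 1.10 (standard error 0.19, adjusted p = 0.01), or 0.98 without D7 replicate 34, below 2-fold. Of 23 markers of meninges and fibroblasts none was called, 20 had a lower mean at D7, and their summed level was 106 to 231 at D7, high in replicates 31 and 33, 134 to 230 at D3, and 85.7 to 232 in Control. Igf2 and Itih2 of this list were not above background on any of the 10 arrays, and the part of these cells in the matrix genes was not tested.

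**Figure D3:**
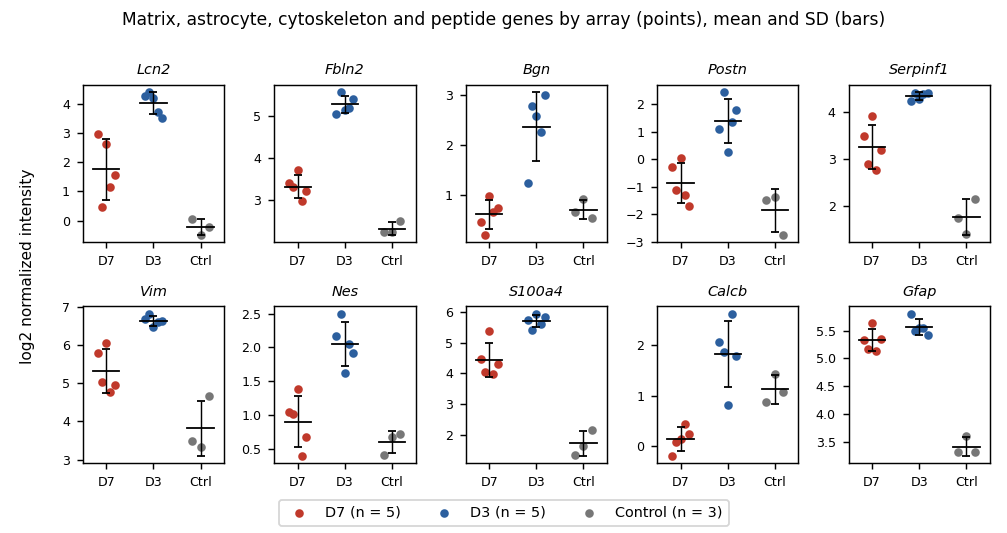
Levels of 10 genes of matrix, astrocytes, cytoskeleton and peptides (log2 normalized intensity, vertical axis) on each array of D7, D3 and Control, with mean and SD (n = 5, 5 and 3). All genes shown except Gfap are lower at D7 than at D3 without overlap, and Calcb is below Control at D7. The D7 and D3 points of Gfap overlap far above Control.

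Among genes of cell shape, motility and membrane repair, 6 of 41 were lower at D7 and none was higher, with a median of -0.38. S100a4, a calcium-binding protein of motile cells, had 22.2, 16.7, 41.8, 15.8 and 19.7 at D7, against 53.1, 42.7, 61.8, 48.5 and 57.3 at D3 and 2.54, 3.12 and 4.48 in Control. D7 replicate 33 (41.8) came close to the lowest D3 array (42.7), and the gene fell by 1.27 (standard error 0.23, adjusted p = 0.011) while it stayed 2.72 above Control. Tubb6, a beta-tubulin, fell by 1.89, Tagln, the actin-binding transgelin, by 1.72, Emp3, a membrane protein, by 1.13 and Lgals1, galectin 1, by 1.09, all without overlap. The sixth was Vim. Tubb6 and Tagln lost their calls in 7 of the 10 fits without an array, Lgals1 in 3 and Emp3 in 2, with adjusted p up to 0.10 for Tagln. Rdx, radixin, which ties actin to the membrane, was 0.48 lower without overlap (adjusted p = 0.01).

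The median difference over 39 genes of microglia and macrophages was 0.03, and their median above Control was 1.79 at D7 and 1.80 at D3. Of the 39, 1 was lower and none was higher by the rule with 2-fold. Aif1, the protein Iba1 used to stain microglia, had 30.1, 17.8, 59.1, 22.1 and 43.1 at D7, against 38.1, 28.3, 29.2, 30.9 and 29.8 at D3 and 10.5, 12 and 13.9 in Control, a difference of 0.01 (95% interval -0.49 to 0.51). The D7 arrays spread to both sides of the D3 arrays. Csf1r, the receptor that keeps microglia alive, differed by 0.37 (standard error 0.17, adjusted p = 0.37). Ctss, the lysosomal protease cathepsin S, went up further, with 48.8, 42.6, 58.2, 41.4 and 44.4 at D7, against 31.1, 27.9, 25.3, 26.5 and 30.1 at D3 and 16.4, 18 and 19.8 in Control. The 3 groups did not overlap, and Ctss was 0.73 higher at D7 than at D3 (standard error 0.12, adjusted p = 0.0092, adjusted p alone).

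Some genes of myeloid cells fell nonetheless. Lyz2, lysozyme, had 6.0, 1.49, 4.63, 1.95 and 2.89 at D7, against 5.44, 10.1, 6.75, 7.46 and 9.35 at D3 and 1.04, 1.0 and 1.09 in Control, and was 1.36 lower (standard error 0.30, adjusted p = 0.03) with an overlap through D7 replicate 31. Outside the list, Hk3, a hexokinase of myeloid cells, fell by 1.56 (standard error 0.30, adjusted p = 0.016), Lst1, a leukocyte transcript, by 1.31, Apobec1, a cytidine deaminase that edits RNA, by 1.16, and Acp5, tartrate-resistant acid phosphatase, by 1.01. Hk3 was above background on 3 of 5 D7 arrays. Lyz2, Lst1 and Apobec1 lost the call in 6 of the fits without an array, Acp5 in 7 and Hk3 in 2, with adjusted p up to 0.14 for Acp5. Of 36 markers of blood leukocytes none was called with the 2-fold limit and 1 was lower with the adjusted p alone. Their median difference was -0.01, and their summed level was 61.9 to 145 at D7 (highest in replicate 31), 81.0 to 94.6 at D3 and 45.5 to 49.0 in Control. Gzmb, Klrd1, Arg1 and Ccr7 of that list were not above background on any D7 or D3 array. Cd14, a myeloid receptor that was not called, had 3.45 to 7.88 at D7, 10.8 to 24.3 at D3 and 0.880 to 1.53 in Control. None of 34 chemokine, 46 cytokine and 26 complement genes was called under either rule, with medians of 0.01, 0.01 and -0.005. The chemokine Ccl2 had 3.32 to 8.52 at D7, 7.68 to 16.5 at D3 and 5.48 to 5.96 in Control, while 20 of the 34 had a higher mean at D7. Of 14 measured MHC class II genes, which serve antigen presentation, none was called with the 2-fold limit. With the adjusted p alone 1 was higher, but 13 had a lower mean at D7 and the median was -0.29. Their medians against Control were 1.20 at D7 and 1.65 at D3.

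Several lower genes belonged to none of these groups. Calcb, which encodes the beta form of the calcitonin gene-related peptide, had 0.875, 1.07, 1.11, 1.36 and 1.18 at D7, against 4.15, 3.62, 1.76, 6.16 and 3.45 at D3 and 1.83, 2.71 and 2.10 in Control. The D7 arrays lay below both other groups. It fell by 1.68 (standard error 0.23, adjusted p = 0.0024) and stood 0.98 below Control at D7 (adjusted p = 0.018), against 0.70 above it at D3. Grifin, a lens protein related to galectins, had 1.71, 1.42, 1.14, 1.75 and 1.10 at D7, against 3.73, 6.99, 3.58, 7.74 and 3.38 at D3 and 1.09, 1.22 and 1.01 in Control, so that it was close to Control again after a fall of 1.77 (standard error 0.30, adjusted p = 0.0095). Fxyd2, the gamma subunit of the sodium pump, fell by 1.19 (standard error 0.22, adjusted p = 0.011), and its second probe fell by 1.04 (adjusted p = 0.01). Pde1a, a calcium-dependent phosphodiesterase, Acox2, a peroxisomal oxidase, and Sln, a small inhibitor of the calcium pump of the endoplasmic reticulum, fell by 1.07, 1.05 and 1.21. Their calls were lost in 2, 5 and 6 of the fits without an array. Lrrc15, a membrane protein of fibroblasts, was not above background on any D7 array and was at least 1.58-fold lower there than at D3 (adjusted p = 0.038), a call lost in 9 of those fits (adjusted p up to 0.11).

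Of the 9 higher genes, 8 had a D3 mean below the Control mean. Their choice by D7 minus D3 favours a low D3 level, and the median of D3 minus Control over all genes was -0.10. Of 40 genes of resting astrocytes, 1 was higher at D7 and none was lower, 3 were higher and 1 was lower with the adjusted p alone, and the median was 0.08. The medians of these 40 against Control were 0.06 at D7 and -0.10 at D3, beside -0.12 and -0.10 over all genes. The D7 arrays lay above the D3 arrays without overlap for 10 of the 40, against 147 (1.19%) of all genes. Agt, angiotensinogen, which astrocytes make in the brain, had 3.50, 3.91, 2.54, 4.6 and 2.72 at D7, against 1.29, 1.38, 1.66, 1.67 and 1.58 at D3 and 4.24, 3.30 and 3.85 in Control. Its level was thus low at D3 (D3 minus Control -1.32) and had come back to near Control at D7 (-0.16), with a difference between the time points of 1.16 (standard error 0.18, adjusted p = 0.0043). S100b, a calcium-binding protein of astrocytes, was even within groups, with 46.1, 46.5, 45.8, 46.2 and 46.5 at D7, against 26.4, 25.8, 27.2, 25.9 and 27.8 at D3 and 42.7, 39.6 and 43.2 in Control. The difference was 0.79 (standard error 0.10, adjusted p = 8.1e-04), 1.73-fold and so below the fold limit. Apoe, the lipid carrier of glia, was 0.71 higher (adjusted p = 0.011) with 205, 220 and 223 at D7, where the spots of 2 arrays were left out for a quality flag, against 122 to 149 at D3 and 137 to 175 in Control. Entpd2, an enzyme that degrades extracellular ATP, was 0.54 lower (adjusted p = 0.011), with 3.80 to 5.03 at D7, 5.61 to 6.95 at D3 and 3.12 to 3.48 in Control.

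Itih3, a heavy chain of the inter-alpha-trypsin inhibitors that stabilise hyaluronan, had 28.2, 23.9, 13.6, 23.7 and 24.6 at D7, against 9.96, 10.6, 8.13, 11.1 and 9.30 at D3 and 18.4, 18.4 and 20.9 in Control. All D7 arrays were above all D3 arrays, replicate 33 being the lowest, and the difference was 1.18 (standard error 0.17, adjusted p = 0.0027). Casr, the calcium-sensing receptor, had 0.658, 0.913, 1.02, 0.525 and 0.781 at D7, against 0.354, 0.255, 0.237, 0.347 and 0.471 at D3 and 0.636, 0.647 and 0.540 in Control. It was above background on all D7 arrays and on 2 of the D3 arrays and was 1.23 higher (standard error 0.20, adjusted p = 0.0064). Agt, Itih3 and Casr were the 3 higher genes that kept their call whichever array was left out.

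The other 6 lost their call without 1 or more of the arrays. Lbhd2 had the largest rise, 2.28 (standard error 0.50, adjusted p = 0.03), with 1.40, 3.91, 8.89, 1.05 and 1.86 at D7, against 0.707, 0.490, 0.300, 0.553 and 0.610 at D3 and 1.72, 1.66 and 5.52 in Control, and its second probe rose by 2.36 (standard error 0.52). Both D7 and Control varied several-fold between arrays, and the call was lost in 6 of the fits without an array (adjusted p up to 0.086). Igsf1, an immunoglobulin superfamily membrane protein, was 1.01 higher (standard error 0.15, adjusted p = 0.0029), with 8.01 to 11.4 at D7 and 4.15 to 5.67 at D3, but its other, dimmer probe differed by 0.00 (standard error 0.12). Camkk2, a kinase upstream of CaM kinases and AMPK, was 1.0 higher (standard error 0.23, adjusted p = 0.047, 4 D3 values), and its dimmer second probe differed by 0.05 (adjusted p = 0.94). Enpp6, a choline phosphodiesterase of newly formed oligodendrocytes, was 1.07 higher (standard error 0.24, adjusted p = 0.039), with 4.44, 5.04, 13.5, 5.09 and 5.90 at D7, against 4.04, 2.98, 2.39, 2.33 and 3.38 at D3 and 3.20, 2.68 and 2.26 in Control. Without D7 replicate 33 the difference was 0.78. The other 30 oligodendrocyte genes were not called, and the median of the list was -0.04. Cyp4f4, a cytochrome P450 that hydroxylates fatty acids, and Clec2d, a C-type lectin, rose by 1.13 and 1.0. The calls of Camkk2, Enpp6, Clec2d and Cyp4f4 were lost in 9, 8, 7 and 5 of the fits without an array, with adjusted p up to 0.12 for Camkk2. Igsf1 missed only the 2-fold limit, in 4 of those fits, with a difference of at least 0.95 and an adjusted p of at most 0.013, and it was the 1 higher gene that the methods' t-test called after adjustment.

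**Figure D4:**
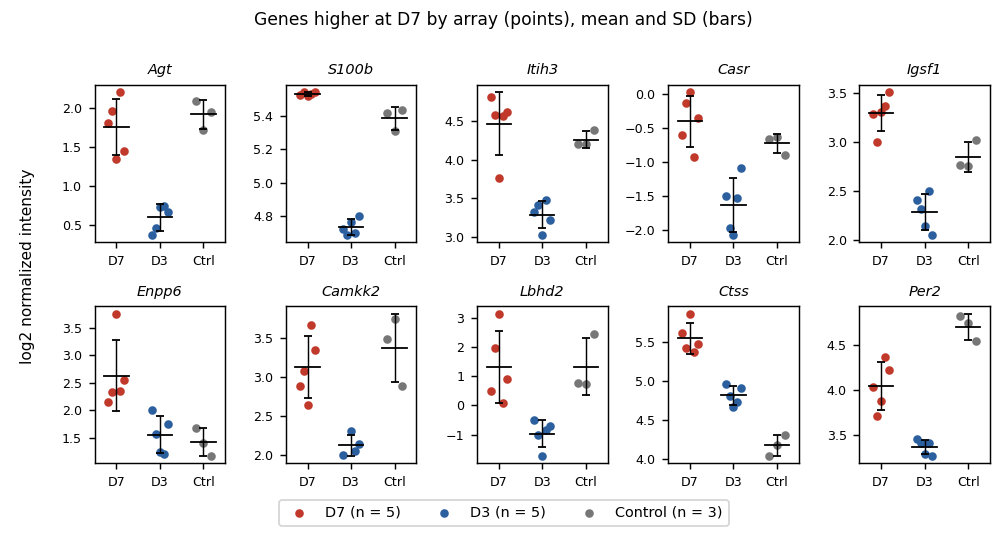
Levels of 10 genes that were higher at D7 (log2 normalized intensity, vertical axis) on each array of D7, D3 and Control, with mean and SD (n = 5, 5 and 3). S100b, Ctss and Per2 passed the adjusted p alone and the other 7 also the 2-fold limit, and the D3 mean lies below both the D7 and the Control mean for each gene except Enpp6 and Ctss.

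No gene was called by the rule with 2-fold among 29 markers of excitatory neurons, 26 glutamate receptor subunits, 58 voltage-gated channels and 36 synapse genes, and the medians were 0.14, 0.12, 0.01 and 0.09. Against Control the median of the excitatory markers was -0.47 at D7 and -0.62 at D3, and that of the channels -0.43 at D7 and -0.47 at D3. Slc17a7, the vesicular glutamate transporter of pyramidal and granule cells, had 35.4, 47.9, 28.1, 39.3 and 33.2 at D7, against 31.3, 29.9, 41.6, 36.2 and 33.7 at D3 and 53.6, 60.9 and 56.4 in Control. The D7 and D3 arrays overlapped throughout, below Control (difference 0.08, 95% interval -0.23 to 0.39). Other neuronal markers were less flat. Camk2a had 15.8 to 41.6 at D7, 9.21 to 24.2 at D3 and 35.8 to 42.6 in Control, with medians of 32.9, 21.1 and 42.6. Its D7 replicate 35 was left out for a quality flag. Calb1 had medians of 4.88, 2.81 and 8.54, and D7 and D3 overlapped for both genes. Gad1 went the other way, with medians of 18.6, 21.1 and 30.1. The probe of Snap25, a synaptic marker, was not above background on any D7 array.

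Single members of 3 other lists passed the adjusted p alone. Of the synapse list, Dlg3, a scaffold of NMDA receptors, was 0.81 higher (adjusted p = 0.041, 4 D3 values). Of the peptide and receptor list, Tacr3, the neurokinin B receptor, was 0.70 higher (adjusted p = 0.012, 4 D7 values). Of 31 glucocorticoid and clock genes, Per2, a clock gene, was 0.68 higher (adjusted p = 0.03) and Lcn2, which that list also holds, was lower. The D7 and D3 arrays did not overlap for Dlg3, Tacr3 or Per2. Per2 had 16.4, 13, 14.6, 20.7 and 18.7 at D7, against 10.9, 10.6, 9.77, 10.6 and 9.59 at D3 and 28.5, 26.8 and 23.4 in Control. Its D7 mean stood between those of D3 and Control, 0.67 below Control at D7 against 1.35 below it at D3. The labels and the paper give no hour of killing, and the part of the time of day in these levels was not tested. None of 35 immediate early genes was called under either rule, and their median was 0.08.

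Of 31 genes of cholesterol synthesis, none was called with the 2-fold limit, 4 were lower with the adjusted p alone, 28 had a lower mean at D7, and the median was -0.26. In 26 of the 31 the means ran in the order D7, D3 and Control from low to high, as they did in 3192 of all 12331 genes. The medians against Control were -0.77 at D7 and -0.47 at D3. Fdft1, squalene synthase, had 6.07, 7.54, 8.42, 6.78 and 6.74 at D7, against 12.5, 11.7, 10.8, 10.1 and 10 at D3 and 15.5, 19.3 and 16.9 in Control. The 3 groups did not overlap, and it was 0.64 lower (standard error 0.12, adjusted p = 0.011). Cyp51, which removes a methyl group of lanosterol, Acat2, which joins acetyl-CoA units, and Tm7sf2, a sterol reductase, were 0.62, 0.58 and 0.52 lower without overlap, with adjusted p of 0.013, 0.012 and 0.021. Median levels of the list by array were -0.23 to -0.06 at D7, against 0.13 to 0.21 at D3 and 0.49 to 0.79 in Control.

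Interferon-stimulated genes did not pass the test, but 1 animal stood out. Of 32, none was called under either rule, although 30 had a higher mean at D7 and the median was 0.42. D7 replicate 35 was the highest of the 10 arrays for 28 of the 32 genes. Ifit3, an antiviral effector, had 1.0, 0.875, 1.65, 0.655 and 16.8 at D7, against 0.635, 0.635, 0.450, 0.634 and 0.655 at D3 and 0.631, 0.251 and 0.623 in Control. Rsad2, viperin, had 1.90, 1.31, 3.88, 1.24 and 35.5 at D7, against 1.63, 1.0, 1.02, 1.12 and 1.52 at D3, and Isg15, a ubiquitin-like modifier, had 2.06, 1.43, 6.30, 1.45 and 37.9 at D7, against 2.28, 1.78, 1.49, 1.68 and 1.57 at D3. Replicate 33 was the second highest in all 3 genes, and the other 3 D7 arrays were at the level of D3 or near it. The differences of 1.54, 1.45 and 1.20 had adjusted p of 0.27, 0.34 and 0.45. By array, the median of the list was -0.34, -0.44, 0.64, -0.65 and 1.80 at D7, against -0.43 to -0.07 at D3 and -1.09 to -0.72 in Control. Replicates 33 and 35 were also the D7 arrays with high choroid plexus markers. D3 replicates 11 and 14, high in those markers too, had interferon medians of -0.07 and -0.21. The part of choroid plexus cells in the interferon genes was not tested.

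**Figure D5:**
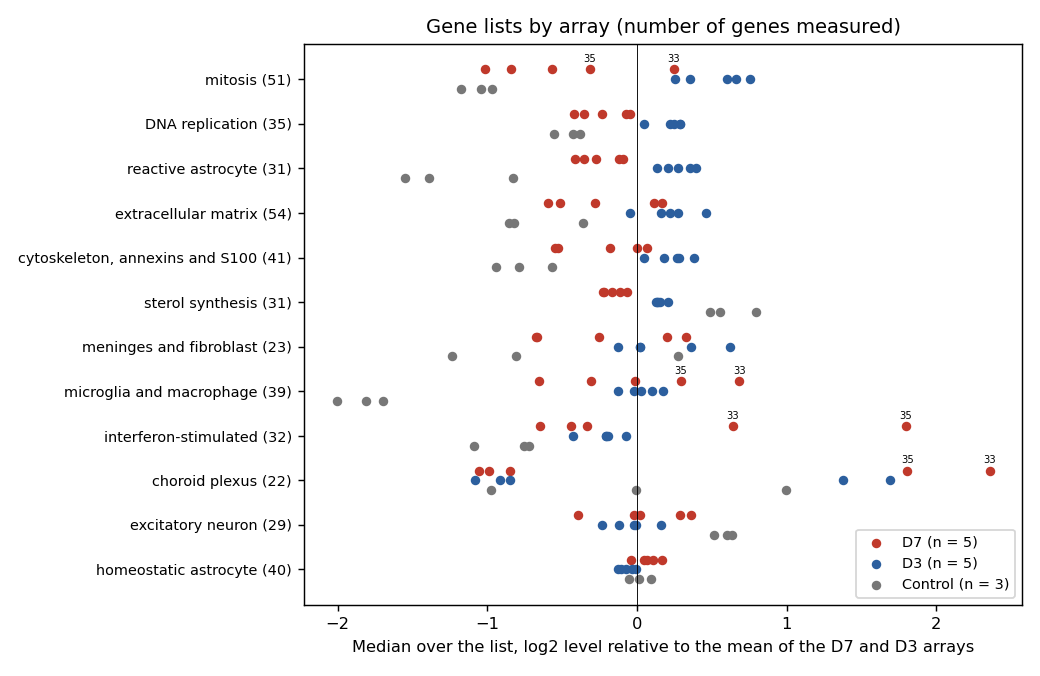
Median level of 12 gene lists on each array, as log2 relative to the mean of the D7 and D3 arrays (horizontal axis), with D7 above D3 above Control in each row and the number of genes in parentheses. Mitosis, reactive astrocyte and sterol lists separate D7 from D3 or nearly so, and microglia genes do not. D7 replicates 33 and 35 (labelled) stand apart from the other D7 arrays in the interferon and choroid plexus lists. Some D3 arrays are also high in the choroid plexus list.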

How the data were processed

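Hippocampal RNA of 18 rats was hybridised to CodeLink Rat Whole Genome arrays, 1 array per rat and 1 dye. The deposited values are intensities that the authors background-corrected and normalized with the CodeLink software, so that each array's median spot is close to 1. Spots flagged other than good or low (0.699%) were set to missing, values were floored at percentile 1 of each array and taken to log2, and 33800 probes were tested. One linear model with D7, D3, Chronic and Control was fitted in limma 3.58.1 (R 4.3.3, eBayes with a trend), and p-values were adjusted by the Benjamini-Hochberg method. Calls needed an adjusted p under 0.05 together with a change of at least 2-fold. The probe with the highest mean stood for a gene, and 12331 genes were named. A gene not above background on any array of the dimmer group has a bound ("at least"). Genes named are the 15 largest called changes per direction, called list members, a few members of each list that were not called and the 6 genes measured by PCR. Other called genes, and list members that passed the adjusted p alone, were named after their values were seen. The members and lists were chosen with earlier results of these data known. The script was tested on simulated data. Promoters are those of RefSeq. The files give no slide or scan batch. The p-values set a difference between 5 and 5 arrays against a spread between rats that was estimated from all 18 arrays. Alternatives were other scalings, floors, filters, weights, tests and fits without an array.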

Additional observations from a re-analysis of the deposited data

Results flagged for a closer look

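Single arrays that stood apart from the other 4 of their group (Dixon's test at 95%) were found in 12 of 242 groups checked, where chance alone gives about 12.1. Replicate 33 of D7 had a log2 level of 3.76 for Itih3, the lowest of its group (13.6 against 23.7 to 28.2 as normalized intensity), and of 3.76 for Enpp6, the highest (13.5 against 4.44 to 5.90). Replicate 35 of D7 had 4.07 for Ifit3 (16.8 against 0.655 to 1.65). Replicate 31 of D7 had 3.81 for Col1a1 (14 against 10.9 to 11.4) and -1.08 for Clec2d (0.474 against 0.718 to 0.832). Replicate 32 of D7 had -0.60 for Sln (0.659 against 0.235 to 0.306).

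Replicate 13 of D3 gave 4 of the 12. It was low for Mcm5 at 0.072 (1.05 against 1.51 to 1.71), for Tnc at 3.57 (11.8 against 15.3 to 16.4), for Ifit3 at -1.15 (0.450 against 0.634 to 0.655) and for the median of the DNA replication list at 0.049 (0.22 to 0.29 on the other D3 arrays). Replicate 11 of D3 was high for Csf1r at 6.09 (68.0 against 48.2 to 52.8), and replicate 12 of D3 for Pdlim5, a scaffold of the actin cytoskeleton, at 3.42 (10.7 against 4.62 to 5.76).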

How the results depend on the processing

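The counts depended on the arrays and on the test more than on the floor or the filter. No called gene changed sign under any alternative, but with the methods' t-test at the unadjusted threshold most called probes were higher at D7 (28.4% lower, against 70.6% by the main rule). Over the fits that left out 1 array each, 35 to 132 probes were lower and 13 to 34 were higher, or 73 to 411 and 38 to 148 with the adjusted p alone. Array weights gave 145 lower and 57 higher probes, or 528 and 205 with the adjusted p alone. The methods' t-test gave 4 and 1 after Benjamini-Hochberg adjustment (29 and 13 with no fold limit), and 182 and 459 at the unadjusted threshold (2256 and 2123 with no fold limit). Quantile normalization gave 14 higher probes, and scaling at percentile 75 gave 130 lower ones with the adjusted p alone. Of the 22 mitosis genes called, the adjusted t-test called 1. Of the 56 lower and 9 higher genes, 45 and 7 were still called with the D7 and D3 arrays alone, 48 and 7 after quantile normalization, 41 and 9 after scaling at percentile 75, and 2 and 1 with the adjusted t-test. The causes were not tested. A normexp background correction was not run because the files used hold no separate background. No paired analysis was possible because no replicate number in the labels occurs in more than 1 group. Between 66.0 and 76.0% of spots were above background on the D7 and D3 arrays, which limits what can be said of dim genes.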
